A study of Caenorhabditis elegans with 2 samples.

Results

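The 10 genes described here build or control X chromosome dosage compensation in Caenorhabditis elegans, and were taken from 19985 protein-coding genes by name: xol-1, sdc-1, sdc-2, sdc-3, dpy-21, dpy-26, dpy-27, dpy-28, dpy-30 and mix-1. An eGFP fusion of the protein W03F9.2 was mapped by ChIP-seq, which sequences the DNA that comes down with an immunoprecipitated protein. Whole animals of strain OP215, genotype unc-119(ed3) III; wgIs215, were collected at L4/young adult with the sexes mixed, in 2 biological replicates that form 1 group. Both replicates carry the unc-119 mutation and the integrated transgene wgIs215, and no untagged animals are among the samples. Cells that do and do not use dosage compensation cannot be told apart in whole animals, and males and hermaphrodites were not separated.

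In this worm, hermaphrodites have a pair of X chromosomes and males a single one. The switch gene xol-1 is active in males, where it turns off the hermaphrodite programme. In hermaphrodites xol-1 is off, and the SDC proteins, together with DPY-30, bring a condensin complex to both X chromosomes and lower their transcription. DPY-27, MIX-1, DPY-26, DPY-28 and CAPG-1 are the subunits of that condensin, while DPY-21 is a histone demethylase that enriches the X in monomethylated H4K20. The comparison asked at which of these genes the tagged protein lay, and how strongly.

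Peaks lay at the promoters of 4 of the 10 genes, dpy-27, mix-1, dpy-26 and dpy-30. Their DNA is shown because these are the sites the counts rest on. Also shown is the DNA at sdc-2, which had a strong entry in each replicate's list, and at the strongest peak upstream of xol-1. Each sequence is the reference genome WBcel235 (the build called ce11 in the peak lists), read 5′ to 3′ on the gene's strand, 101 bp centred on the summit, the position of highest signal within a peak. Only the part outside annotated exons, 161 bp of the peak, is given for mix-1. Capitals mark any of 5 6-mers, those whose share at other optimal-set summits most exceeded, in percentage points, their share in nearby flanks. In the xol-1 sequence capitals mark the letters GCGCAGGG on either strand.
dpy-27, chrIII:3820300-3820400, minus strand: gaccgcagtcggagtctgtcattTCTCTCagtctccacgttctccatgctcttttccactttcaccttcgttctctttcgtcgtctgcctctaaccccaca
mix-1, chrII:10824085-10824245, plus strand: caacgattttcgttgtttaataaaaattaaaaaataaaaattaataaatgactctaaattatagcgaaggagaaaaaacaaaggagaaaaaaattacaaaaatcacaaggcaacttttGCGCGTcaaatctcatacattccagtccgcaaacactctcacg
dpy-26, chrIV:12451433-12451533, minus strand: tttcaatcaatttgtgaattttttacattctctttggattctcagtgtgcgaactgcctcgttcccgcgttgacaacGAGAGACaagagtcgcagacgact
dpy-30, chrV:12191142-12191242, plus strand: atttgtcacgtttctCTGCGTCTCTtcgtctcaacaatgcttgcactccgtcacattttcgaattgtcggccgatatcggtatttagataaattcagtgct
sdc-2 (summit of replicate 1), chrX:11522259-11522359, plus strand: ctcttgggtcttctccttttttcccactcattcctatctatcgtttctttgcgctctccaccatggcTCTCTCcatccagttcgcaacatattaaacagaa
xol-1 (summit 4890 bp upstream), chrX:8036373-8036473, plus strand: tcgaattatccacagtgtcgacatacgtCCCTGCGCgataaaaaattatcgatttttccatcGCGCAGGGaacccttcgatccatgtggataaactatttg

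The 6-mers were read on both strands. The first, GAGAGA, overlaps with AGAGAC by all but a letter, and ACGCAG overlaps likewise with GACGCA, while ACGCGC stands apart. Within 50 bp of the summit, GAGAGA was in 21.5% of 2404 optimal-set peaks other than those of these genes, against 7.20% of flanks 200 to 250 bp away. It was in 8.85% of the 101 bp stretches directly upstream of all 19985 starts. The shares at summits, in flanks and upstream of starts were 17.1%, 4.08% and 5.21% for AGAGAC, and 15.3%, 2.37% and 2.81% for ACGCAG. They were 15.3%, 2.58% and 2.65% for GACGCA and 13.8%, 1.46% and 1.79% for ACGCGC. All 4 genes with an optimal-set summit had a match in the window of 101 bp: GAGAGA at dpy-27, the overlapping first pair at dpy-26, ACGCGC at mix-1, and at dpy-30 the overlapping second pair together with AGAGAC. At mix-1 the window's match lies in its exon part, which is not shown, and the capitals in the sequence shown mark a further match just outside the window. At least 1 of the 5 was in 48.0% of the other summit windows and in 15.9% of the stretches upstream of starts. The sdc-2 window held GAGAGA, and the xol-1 window none of the 5. GC content of these windows ran from 42.6% at dpy-30 to 51.5% at dpy-27, against a median of 44.6% and quartiles of 38.6% and 49.5% over all optimal-set summits.

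The deposited lists rank peaks by the authors' own signal, which has no stated unit. The pooled list and the list of each replicate hold 30000 entries, peaks and background together, and each list has its own signal scale. The optimal set, which the authors kept for reproducible ranking (IDR), holds 2409 peaks with pooled signals of 48.5 and above. A promoter was taken as 1000 bp upstream to 200 bp downstream of the gene's start. By that rule 4 of the 10 genes had an optimal-set summit, against 11.7% of all protein-coding genes. In the whole pooled list 7 of the 10 had an entry, against 40.1%. Their signals in the optimal set ran from 50.7 to 93.6, with a median of 72.9. The median over all 2331 genes with such a summit was 80.2, above the signals of dpy-30, dpy-27 and dpy-26 and below that of mix-1. The median over all peaks of the set was 69.8, and of the 4 genes only dpy-26 lay below it.

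**Figure D1:**
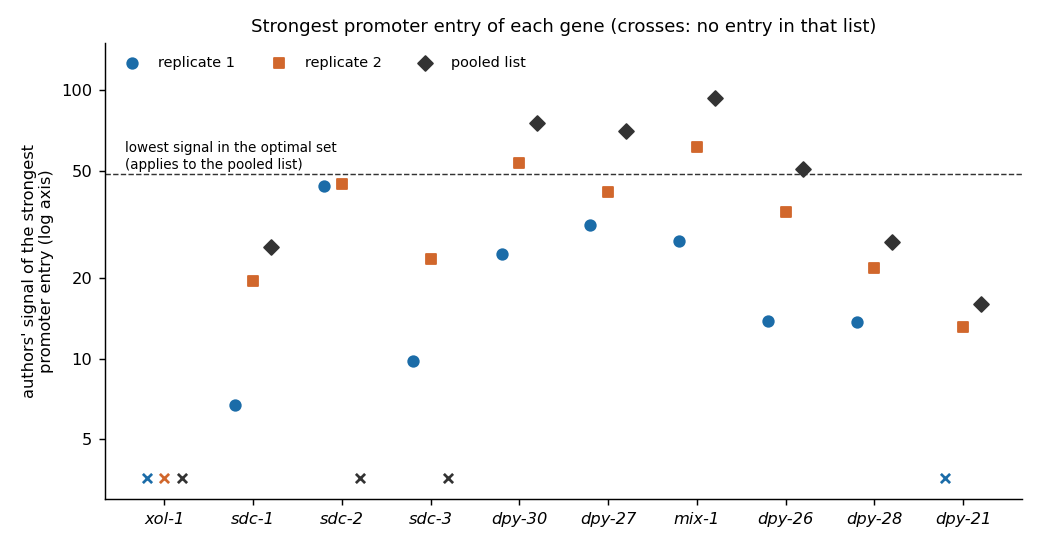
Authors' signal (log axis) of the strongest promoter entry of each gene in the list of replicate 1 (circles), replicate 2 (squares) and the pooled list (diamonds), with a cross where a list has no entry. Pooled signals of dpy-30, dpy-27, mix-1 and dpy-26 lie above the lowest signal of the optimal set, 48.5 (dashed line, which applies to pooled signals only, since each list has its own scale), and sdc-2 has an entry in both replicates and a cross in the pooled list.

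Among the condensin genes, mix-1, which encodes the SMC2-type subunit that this condensin shares with the mitotic ones (WBGene00003367, chromosome II, 10824246 to 10841424, plus strand), had the strongest promoter peak of the 10 genes. Its signal was 27.4 in replicate 1 and 61.6 in replicate 2, with ranks of 1505 and 578, and 93.6 in the pooled list, rank 659. The summit lay in the 5′ UTR, 14 bp downstream of the start. The promoter of R06F6.12, which is read in the opposite direction and starts 165 bp away, also held it, 179 bp upstream of that start. No other of the 10 genes shared a promoter summit with another protein-coding gene.

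The gene dpy-27 (WBGene00001086, chromosome III, 3813018 to 3819679, minus strand) encodes the SMC4-type subunit found only in the dosage compensation condensin. Its signals were 31.5 in replicate 1, 41.5 in replicate 2 and 70.3 in the pooled list, at ranks 1122, 1444 and 1191. The summit lay 671 bp upstream, farther from the start than at most genes: the strongest promoter summits of all genes with one had a median position of -235 and quartiles of -396 and -136. A noncoding RNA gene, R13G10.5, starts 77 bp from this summit. A promoter from 500 bp upstream to 100 bp downstream did not include the summit. That promoter left 3 of the 10 genes with an optimal-set summit, against 9.52% of all protein-coding genes.

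The gene dpy-26 (WBGene00001085, chromosome IV, 12445801 to 12451335, minus strand) encodes the kleisin subunit, which closes the ring of the SMC pair. Its main summit, 148 bp upstream, had a pooled signal of 50.7, rank 2236 of the 2409 optimal-set peaks and just inside the set. The replicates differed there: the signal was 13.8 in replicate 1, rank 6104, and 35.2 in replicate 2, rank 1984. A second entry, 353 bp upstream, had pooled signal 27.8 and was not in the optimal set. Of all genes with an optimal-set promoter summit, 95.4% had a higher signal than dpy-26, against 37.4% for mix-1, 55.1% for dpy-30 and 60.6% for dpy-27.

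The fourth condensin gene, dpy-28 (WBGene00001087, chromosome III, 10763131 to 10777076, plus strand), encodes a HEAT-repeat subunit and had no optimal-set summit in its promoter. Its strongest promoter entry lay 89 bp upstream with a pooled signal of 27.1, rank 6095, and the strongest promoter entries of the replicates had 13.7 and 21.7 at ranks 6169 and 4431. That pooled signal was close to the median of 27.2 over the 8011 genes with a pooled entry in the promoter. A weaker entry of 17.6 lay 876 bp upstream, in an intron of tasp-1, the neighbour that ends 110 bp before dpy-28 on the same strand. A pooled entry stronger than both, 31.9 at rank 4643, lay outside the promoter, 512 bp downstream of the start in an intron of dpy-28.

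Of the proteins that bring the condensin to X, DPY-30 is also a subunit of the COMPASS and MLL histone H3K4 methyltransferases. Its gene (WBGene00001088, chromosome V, 12191519 to 12192385, plus strand) had signals of 24.4 in replicate 1 and 53.4 in replicate 2, ranks 1891 and 840, and 75.4 in the pooled list, rank 1060. The summit lay 327 bp upstream and was in no other promoter; the upstream neighbour, ZK863.8, lies 4003 bp away.

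The 3 sdc genes had no optimal-set summit in their promoters. SDC-2 is the hermaphrodite-specific protein that starts assembly on X, and its gene (WBGene00004746, chromosome X, 11522707 to 11533450, plus strand) had a strong entry in each replicate and none in the pooled list. Replicate 1 had an entry 398 bp upstream with signal 44.0, rank 494, and replicate 2 had one 395 bp upstream with 44.6, rank 1236. Their deposited −log10 q-values, 2.48 and 2.61, were the highest in each list, values held by 3183 and 3436 entries, sdc-2 included. The nearest upstream entry of the pooled list lay at -1554, outside the promoter, with a signal of 10.5. Among the 2409 strongest entries of each replicate, both replicates had a summit in the promoters of 4 of the 10 genes, sdc-2, dpy-27, mix-1 and dpy-30, against 8.39% of all protein-coding genes. This count was added after the lists had been seen.

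SDC-1 and SDC-3, zinc finger proteins that act with SDC-2, had entries at their genes below the optimal set. At sdc-1 (WBGene00004745, chromosome X, 16275763 to 16282534, plus strand) the signal was 6.69 in replicate 1, rank 22524, 19.4 in replicate 2, rank 5373, and 26.1 in the pooled list, rank 6455, with the pooled summit 198 bp upstream. At sdc-3 (WBGene00004747, chromosome V, 15039148 to 15048207, minus strand) it was 9.81 in replicate 1, rank 11921, and 23.5 in replicate 2, rank 3920, with no pooled entry. In replicate 1, 75.1% of entries had a higher signal than that at sdc-1 and 39.7% than that at sdc-3; in replicate 2 the shares were 17.9% and 13.1%.

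The demethylase gene dpy-21 (WBGene00001080, chromosome V, 17936282 to 17949193, minus strand) had no entry with its summit in the promoter in replicate 1. Its strongest in replicate 2 had a signal of 13.1, rank 10318, and its pooled entry, 169 bp inside the gene in a coding exon, had 15.9, rank 15142 of 30000. A replicate 1 entry of signal 6.04, rank 25916, overlapped that pooled entry, with its summit outside the promoter. The switch gene xol-1 (WBGene00006962, chromosome X, 8041313 to 8044409, plus strand) had no summit in its promoter in any list. It was the only one of the 10 genes of which this was so. In the pooled list 40.1% of all protein-coding genes had a promoter entry, and the share with none in any list was not counted.

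Deposited signal was generally higher in replicate 2, but each list has its own scale. Over all entries of a list the median was 8.67 in replicate 1 and 10.4 in replicate 2. Over the 2378 optimal-set peaks with an entry in both replicate lists, the log2 ratio of replicate 2 to replicate 1 had a median of 0.66 and an SD of 0.66. The ratio was 1.17 at mix-1, 1.13 at dpy-30, 1.36 at dpy-26 and 0.40 at dpy-27. Of all matched peaks, 87.2% had a lower ratio than dpy-26, and 33.2% had a lower one than dpy-27. For the strongest entries of the other genes it was 0.67 at dpy-28, 1.26 at sdc-3, 1.53 at sdc-1 and 0.02 at sdc-2, below which 14.3% of matched peaks lay. With 2 replicates no test of a difference between genes was made.

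**Figure D2:**
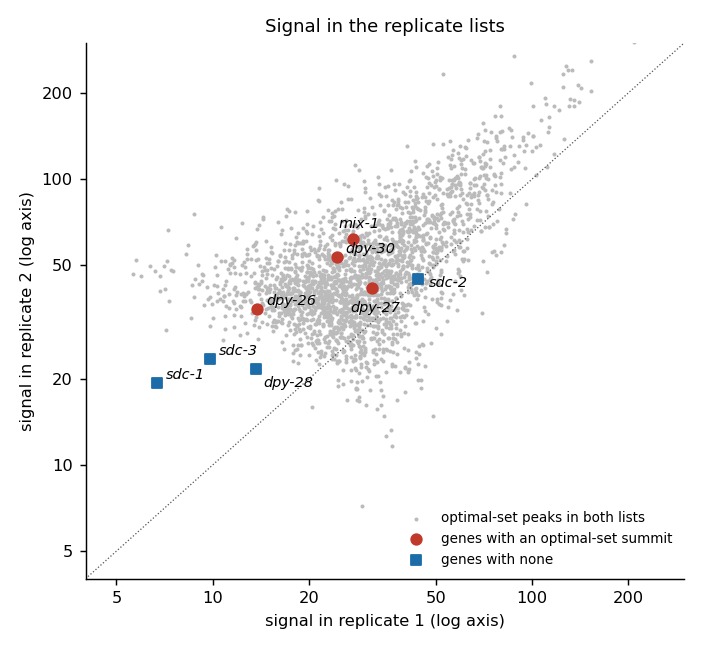
Signal in replicate 1 (horizontal, log axis) against replicate 2 (vertical, log axis) for optimal-set peaks matched in both lists (grey, 26 of them beyond the axes) and for the strongest promoter entry of each gene that has one in both lists. The dotted line is equal deposited signal, although each list has its own scale. The gene sdc-2 lies on it, and the other genes lie above it.

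Within 10 kb of the gene body, 8 of the 10 genes had an optimal-set summit, against 42.6% of all protein-coding genes, and longer genes have more room for one. For 4 of the 8, the nearest such summit lay outside the promoter. The strongest was at dpy-28, where a peak of signal 358, rank 28, lay 3885 bp upstream. It lay 61 bp upstream of tasp-1 and in the promoter of K01G5.10 as well, with 153 in replicate 1 and 203 in replicate 2. At dpy-21 the peak 2274 bp upstream, signal 80.0, lay 482 bp upstream of Y59A8B.24, the neighbour in the opposite direction. It is the optimal-set summit that lies closest outside one of the 10 promoters.

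At xol-1 a peak of signal 232, rank 59 of the optimal set, lay 4890 bp upstream; the next protein-coding gene on that side, C34D10.1, lies 9699 bp away. Its ranks were 55 in replicate 1, with signal 101, and 66 in replicate 2, with signal 142. A weaker peak of 78.3 lay 4679 bp upstream, 40 bp from the start of the noncoding RNA gene C18A11.13. Of protein-coding starts, that of xol-1 was the nearest to both summits. The 101 bp at the stronger summit, shown above, hold GCGCAGGG once on each strand, as an inverted repeat. These letters are the core of a motif known from the X-linked sites that recruit the dosage compensation complex in this worm; they were searched for after the sequence had been seen.

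The peak nearest to sdc-1, signal 64.6, lay 4344 bp upstream of it and 1350 bp upstream of ifa-3, an intermediate filament gene, and 52 bp from the start of a tRNA gene. In mix-1 a second optimal-set summit, signal 76.0 and rank 1048, lay in an intron 16049 bp downstream of the start, 22 bp from the start of the snoRNA gene M106.6. Neither sdc-2 nor sdc-3 had an optimal-set summit within 10 kb. Pooled entries within 10 kb numbered from 1 at sdc-3 to 22 at mix-1, and 11 of the 22 were inside mix-1.

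**Figure D3:**
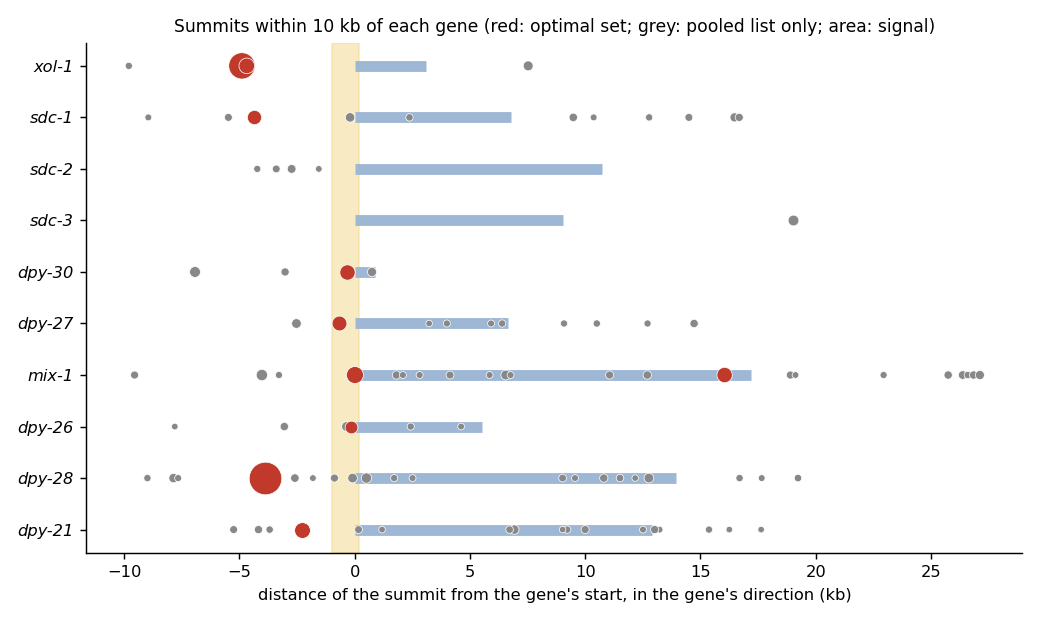
Summits within 10 kb of each gene by distance from its start (kb, in the gene's direction), in the optimal set (red) and only in the pooled list (grey), with area growing with signal; blue bars are gene bodies and the yellow band is the promoter. Red points fall in the band at dpy-30, dpy-27, mix-1 and dpy-26, and the 2 largest red points, at dpy-28 and xol-1, lie upstream of it, 3885 and 4890 bp from the starts.

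By chromosome, 4 of the 7 autosomal genes and 0 of the 3 X-linked ones (xol-1, sdc-1 and sdc-2) had an optimal-set promoter summit. Over all protein-coding genes the shares were 12.5% on autosomes and 5.86% on X. In the pooled list the counts were 6 of 7 and 1 of 3, beside 40.9% and 34.5% of genes. Both X counts leave out sdc-2, which had promoter entries at ranks 494 and 1236 in the replicates but none in the pooled list. Among each replicate's strongest entries, cut at the size of the optimal set, both replicates had a promoter summit at sdc-2 on X. On autosomes they both had one at dpy-27, mix-1 and dpy-30. The shares of all genes by chromosome were not counted for that cut.

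A further 41 genes of connected steps were read in the same way, in 5 lists. Of these, 9 had an optimal-set promoter summit, against 11.7% of all protein-coding genes, and 24 had a pooled entry, against 40.1%. Partners of DPY-30 in COMPASS and MLL complexes had 2 of 7: set-16, the MLL-type methyltransferase gene, with signal 282 and rank 47, and set-2, the COMPASS methyltransferase gene, with 105. The set-16 summit also lies in the promoter of drr-2. Genes of X chromatin had 2 of 6, htz-1, which encodes the histone variant H2A.Z (208, shared with wapl-1), and set-4, which encodes the enzyme for further methylation of monomethylated H4K20 (70.4). By replicate, set-4 had 31.3 and 43.3, close to the values of dpy-27.

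Of the 5 other condensin subunits, 1 had a summit: capg-2, a condensin II gene, with 55.0, shared with tsfm-1. The fifth subunit of the dosage compensation condensin, capg-1, had an entry in replicate 2 alone, signal 23.0 and rank 4060. Of that complex's 5 genes, then, dpy-27, mix-1 and dpy-26 had an optimal-set promoter summit, against 11.7% of all protein-coding genes. These 5 were not a list of their own and were grouped with earlier results of these data known. The dpy-26 summit was just inside the set, with pooled signal 50.7 against the set's lowest of 48.5, and its replicate 1 rank was 6104.

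Sex determination genes had 4 of 18: nos-3, a Nanos-type translational regulator (121, shared with Y53C12B.1), tra-4, a zinc finger gene (78.7), gld-1, an RNA-binding translational repressor (57.0), and fem-2, a phosphatase gene (55.0). The gene repressed by the SDC proteins, her-1, had no promoter entry in any list, and tra-1, the last regulator of the pathway, had a pooled signal of 28.3. The genes that count X chromosomes and autosomes, sex-1, fox-1, ceh-39, sea-1 and sea-2, had 0 of 5, with a pooled entry only at sea-2 (26.5). With the lists this short, the counts are descriptions.

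**Figure D4:**
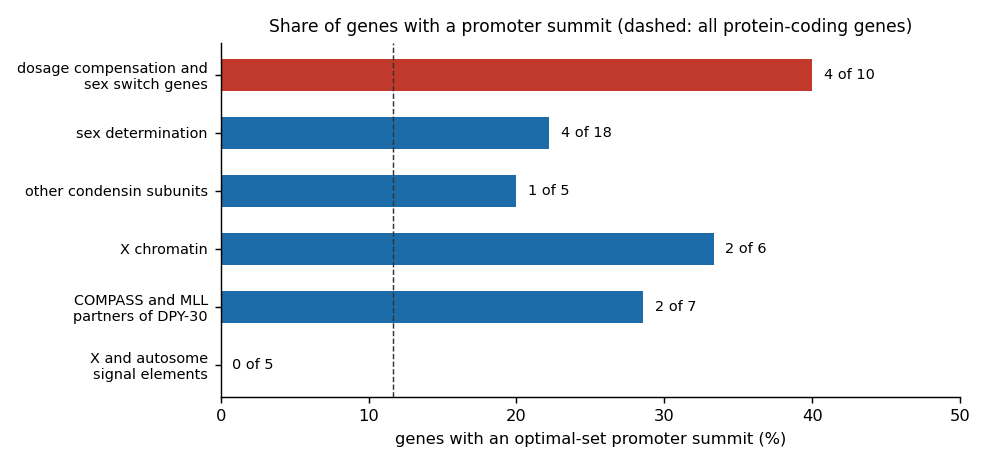
Share of genes in each list with an optimal-set promoter summit (percent), with the count beside each bar and the share of all protein-coding genes, 11.7%, as a dashed line. The shares run from 0 of 5 to 4 of 10.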

How the data were processed

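Peak lists from 2 replicates of 1 group were used. Per the notes deposited with the files, the pooled list and the list of each replicate are peaks and background given to the IDR step, derived from alignments and a further file that also enters the control-normalized signal; aligner, caller and settings: not given in the sources used here. Column 7 holds the signal the authors deposited, on a scale they do not state, and column 9 their −log10 q-value. Read depths are unknown, so no counting error is given for a signal. The ce11 coordinates fit the chromosome lengths of WBcel235; ce10 lists were not used. The 2409 optimal-set peaks are the 2409 strongest of the pooled list. Of their summits, 88.1% lie within 1 bp of the peak's middle, and how exact the summit positions are is not known. Gene models came from Ensembl release 115, and RefSeq gave the same start for all 10 genes. Sequences come from the RefSeq copy of WBcel235. Operon annotation was not used.

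Summits were mapped to protein-coding genes in Python 3.11.15 with pandas 2.3.3, and the steps were tested on simulated data. Counts are set beside all protein-coding genes with no test. The gene lists and members were chosen with earlier results of these data known. Genes named are the 10, those sharing their summits, pathway genes with an optimal-set promoter summit, and the gene nearest to the closest optimal-set summit of a member without one; other genes were named after their values were seen. Alternatives were other promoter windows, transcript starts, nearest start only, peak overlap, the 1204 strongest optimal-set peaks, each replicate alone, other distances and a wider 6-mer window.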

Additional observations from a re-analysis of the deposited data

How the results depend on the processing

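The count of 4 genes with an optimal-set promoter summit was between 3 and 5 under every alternative run. It was 3 with the narrow promoter, which lost dpy-27, beside 9.52% of all genes. It was also 3 among the 1204 optimal-set peaks with the highest signal, which lost dpy-26, beside 7.11%. From the 2409 strongest entries of a single replicate, it was 5 without replicate 1, with sdc-2 added, beside 11.8% of all genes. Without replicate 2 it was 4, with sdc-2 in and dpy-26 out, beside 10.9%. Both mix-1 and dpy-30 were counted under every alternative. The count of pathway genes was 9. With wide promoters (2000 bp upstream to 500 bp downstream) it was 14, when 14.7% of all genes had a summit. Otherwise it ran from 6, beside 7.11% among the 1204 strongest peaks and 8.28% by nearest start only, to 12 without replicate 1, beside 11.8%. The pooled-list count of 7 ran from 5 with the narrow promoter, when 30.8% of all genes had an entry, to 9 without replicate 1, when 41.1% had; it was 8 without replicate 2. The count of 8 within 10 kb ran from 6 among the 1204 strongest peaks, beside 26.9% of all genes, to 10 within 20 kb, beside 58.9%; it was 9 without replicate 1 and 8 without replicate 2. Within 100 bp of the summit GAGAGA was in 32.9% of windows against 12.6% of flanks. AGAGAG then replaced ACGCGC among the 5 6-mers with the largest difference in share. ACGCGC is the only match at mix-1, so the statement that all 4 genes had a match is for the shorter window; matches to the other 5 were not counted. No paired analysis was possible because the series has 1 group. Absence from a list is a weak statement here: of the 2409 strongest entries of replicate 1, 81 (3.36%) had no overlapping entry in the pooled list, as had 64 (2.66%) of replicate 2.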

Other observations

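The letters GCGCAGGG, found at the peak upstream of xol-1, were then counted at all nuclear optimal-set summits, a search chosen after the xol-1 sequence had been seen. On X, 11 of 305 windows of 101 bp (3.61%) held them on either strand, against 1 of 2084 on autosomes (0.048%). The flanks 200 to 250 bp away held them at 2 X peaks and at 0 autosomal ones. They occur 4.57 times per Mb on X and 2.06 to 3.34 times per Mb on the autosomes, and in the 101 bp upstream of 0.0732% of X-linked and 0.0290% of autosomal starts. The X peaks that held them were strong, with a median signal of 231 against 66.2 for the other X peaks, and 10 of the 11 ranked between 39 and 198 in the optimal set. The peak upstream of xol-1 was the fifth of them by signal and the only one with 2 matches. None of the sequences shown for the promoters of dpy-27, mix-1, dpy-26, dpy-30 and sdc-2 held a match. Motifs of this kind mark sites where the dosage compensation complex enters X; maps of that complex were not analysed here.

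The gap at sdc-2 was not unique to it. Of the 2409 strongest entries of replicate 1, 1563 were overlapped by the strongest entries of replicate 2, and 22 of these (1.41%) had no overlapping pooled entry. The sdc-2 entry had the second highest replicate 1 signal of the 22. Others lay at the promoters of emb-5, a transcription elongation factor gene (38.4 in replicate 1 and 47.6 in replicate 2), of mdt-1.2, a Mediator gene (39.4 and 74.4), and of rps-24, a ribosomal protein gene (22.7 and 66.4). Strong entries in a single list also occurred in the pathway lists. The condensin II gene hcp-6 had a promoter entry of 48.7, rank 396, in replicate 1 alone, and rbbp-5, a COMPASS subunit gene, had one of 71.4, rank 409, in replicate 2 alone. These genes were named after their values were seen, and the cause was not tested.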
